A study of Mus musculus with 14 samples.

Results

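The forkhead (Fox) genes encode transcription factors that bind DNA through the forkhead or winged-helix domain. This account covers 35 of them, taken by name from a fixed list, among the 21938 protein-coding genes of the annotation. Their chromatin was mapped in immortalised mouse embryo fibroblasts (iMEFs), which are mesenchymal cells grown from embryos. H3K4me3, the trimethylation of lysine 4 of histone H3 that marks the start sites of many genes, was measured by chromatin immunoprecipitation and sequencing. Exon 4 of the endogenous Ash2l alleles, flanked by loxP sites, was deleted by a tamoxifen-inducible Cre-ER, and the cells live on a lentiviral fusion of FKBP-F36V with human ASH2L, a core subunit of the H3K4 methyltransferases. All groups share this genotype. The cells were grown as individual clones, of which the study mainly used NG3, and it names NG3 for its H3K4me3 sequencing. The compound dTAG-13 brings the fusion protein to the ubiquitin ligase subunit Cereblon and causes its degradation. The labels give 12 H3K4me3 libraries in 6 groups of 2, namely untreated cells and cells treated with dTAG for 30 min, 2 h, 4 h, 8 h or 16 h, together with 2 inputs, of which the untreated group and the 16 h group each have 1.

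The values come from 2 lists of positions. The first is the union of H3K4me3 peaks over all libraries, with 25357 peaks on chromosomes 1 to 19, X and Y, and the second holds 32965 putative enhancers of control cells. Neither list has a value per sample, so changes with time of treatment were not analysed here, nothing below has a replicate error, and the depth of the libraries is unknown here. A width is that of the union peak and can join calls of treated and untreated cells. In a population of cells, a peak does not tell what share of the cells carries the mark. The fibroblast identity of the cells was checked at marker genes, beside a share of 59.1% with a promoter peak over all protein-coding genes. A promoter peak was present at 13 of 15 fibroblast genes, with widths from 368 bp at Fap to 3079 bp at Twist2 and a median of 2520 bp, and was missing at Dcn and Lum. The peaks of Col3a1 (382 bp), Fn1 (750 bp) and S100a4 (944 bp) were also narrow. It was present at 0 of 7 endoderm genes, 1 of 7 blood and endothelial genes (Tek, 435 bp), 2 of 7 epithelial genes (Epcam, 724 bp, and Cdh1, 602 bp) and 2 of 7 neural genes (Syt1, 1737 bp, and Tubb3, 1044 bp).

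Forkhead factors divide by where they act. Foxc, Foxd and Foxf proteins pattern mesoderm and stroma, Foxo proteins answer to insulin and growth factor signalling through AKT, Foxa proteins open chromatin in gut endoderm, and Foxj1 drives motile cilia. Foxk, Foxj2, Foxj3, Foxn2, Foxn3 and several Foxp genes are used in many tissues. The members were sorted by this textbook knowledge into 8 mesenchymal genes (Foxc1, Foxc2, Foxd1, Foxd2, Foxf1, Foxf2, Foxl1, Foxs1), 10 ubiquitous genes (Foxj2, Foxj3, Foxk1, Foxk2, Foxn2, Foxn3, Foxo1, Foxo3, Foxp1, Foxp4), 3 endodermal genes (Foxa1, Foxa2, Foxa3), 6 neural genes (Foxb1, Foxd3, Foxd4, Foxn4, Foxo6, Foxp2) and 8 genes of other lineages (Foxe1, Foxe3, Foxh1, Foxi1, Foxj1, Foxl2, Foxn1, Foxq1). A gene had a promoter peak when any base of a peak lay within 1 kb of a transcription start site (TSS) of the gene in GENCODE. All positions are in the mouse build GRCm38.p6 (mm10).

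To ask whether the mark follows the lineage of the factor, the mesenchymal and ubiquitous members were set against all others. A promoter peak was found at 16 of the 18 mesenchymal and ubiquitous members and at 8 of the 17 members of endodermal, neural and other lineages. Over all protein-coding genes the share was 59.1%. In the first set Foxl1 and Foxp4 had none. In the second set Foxa2, Foxb1, Foxd3, Foxd4, Foxn4, Foxh1, Foxi1, Foxn1 and Foxq1 had none. The median of the widest promoter peak was 2462 bp, with quartiles of 2026 and 2593 bp, at the 16 marked members of the first set. It was 937.5 bp, with quartiles of 585.5 and 1114 bp, at the 8 marked members of the second set. The median over all 12966 protein-coding genes with a peak was 1255 bp, with quartiles of 908 and 1710 bp. Of the first set 14 members, and of the second set 2 (Foxa1 and Foxp2), lay above that median. The genes are not replicates and were chosen with earlier results of these data known, so these counts and medians are a description without a test.

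**Figure D1:**
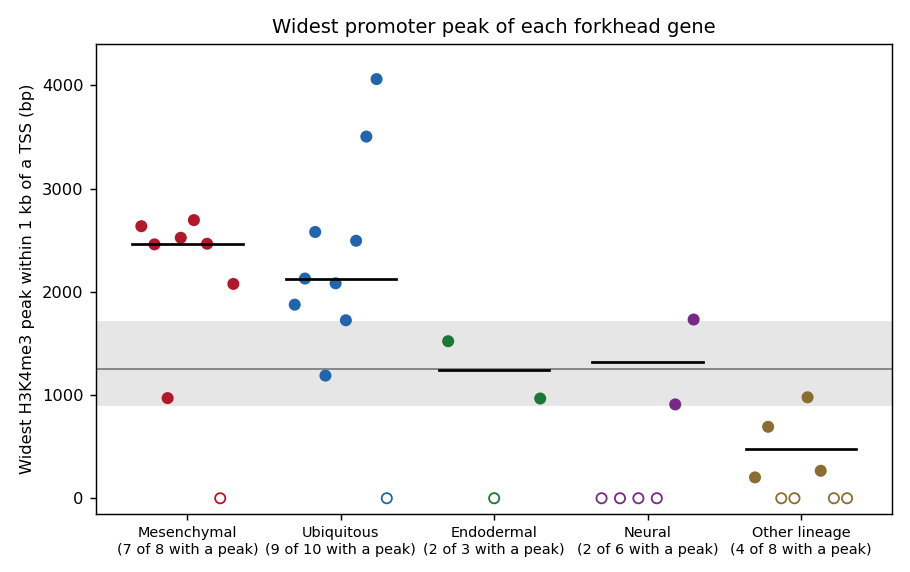
Widest H3K4me3 peak (bp) within 1 kb of a TSS for each of the 35 forkhead genes, 1 point per gene, by class, with open circles at 0 for genes without a peak. Black bars are class medians over genes with a peak, and the grey line and band are the median and quartiles of all protein-coding genes with a peak (1255 bp, 908 to 1710 bp). The mesenchymal points sit at 970 bp and at 2076 to 2694 bp, and the endodermal, neural and other lineage points do not pass 1731 bp.

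Peaks of at least 2000 bp were present at 12 members, 6 mesenchymal and 6 ubiquitous, and at 0 of the 17 others. A peak this wide was found at 9.46% of all protein-coding genes. The members nearest to this limit were Foxs1 (2076 bp) and Foxn2 (2082 bp) above it and Foxj2 (1875 bp) below it. The counts depend on the rule for assigning peaks. Where the centre of the peak had to lie within 1 kb of a TSS, the 12 members fell to 8, and the other lineages stayed at 0. The count at the other lineages also depends on the start of 1 gene. Foxq1, a gene of gastric and other epithelia, had a 2357 bp peak (chromosome 13, 31557884 to 31560240) that began 1750 bp downstream of its GENCODE start and so was not counted. This peak also lies within 1 kb of a TSS of A530084C06Rik. Its RefSeq start lies 2036 bp downstream of the GENCODE start, inside this peak. With RefSeq starts the second set therefore had 10 marked members, Foxq1 and Foxh1 being added, and 1 of them passed 2000 bp.

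The mesenchymal members are described first. Foxc1 and Foxc2 are needed for somite, vessel and eye development. Foxc1 (chromosome 13, 31806633 to 31812476, plus strand) had a peak of 844 bp that ended 147 bp before its start and a peak of 2635 bp that began 89 bp after it and covered 45.1% of the gene. The wider peak lay entirely in exonic sequence, 63.0% of it coding. Its close relative Foxc2 (chromosome 8, 121116171 to 121118895, plus strand) also had 2 peaks, a peak of 1223 bp that ended 385 bp upstream and a peak of 2459 bp from 12 bp before the start to 2446 bp after it. The Foxc2 start thus lay within a peak and the Foxc1 start in a gap. The second Foxc2 peak covered 89.8% of the gene. At both genes the mark lay mostly downstream of the start, over the body of a short gene.

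Foxf1 and Foxf2 act in the mesenchyme of gut, lung and palate. The Foxf1 peak of 2694 bp was the widest of the mesenchymal class. It ran from 1501 bp upstream to 1192 bp downstream of the start and also contained TSSs of the antisense non-coding gene Fendrr and of Gm27530. The Foxf2 peak of 2465 bp ran from 659 bp upstream to 1805 bp downstream and contained TSSs of 1700018A04Rik and Gm27516. Both peaks thus span starts of several genes, and their width is not that of the Fox promoter alone.

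Foxd1 and Foxd2 mark stroma, the former in the developing kidney. The 2 genes differed in their mark. Foxd2 had a peak of 2523 bp, from 1308 bp upstream to 1214 bp downstream, which also held a TSS of the non-coding gene Foxd2os. Foxd1 had a peak of 970 bp that began 70 bp after its start, narrower than those of most marked genes (28.9% were narrower). Foxs1, known from pericytes and vessel walls, had a peak of 2076 bp that began 92 bp after the start, covered 93.0% of the gene and continued past its end. Foxl1, a gene of the mesenchyme below the gut epithelium, had no peak within 1 kb. The nearest peak, of 643 bp, ended 1542 bp before its start.

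**Figure D2:**
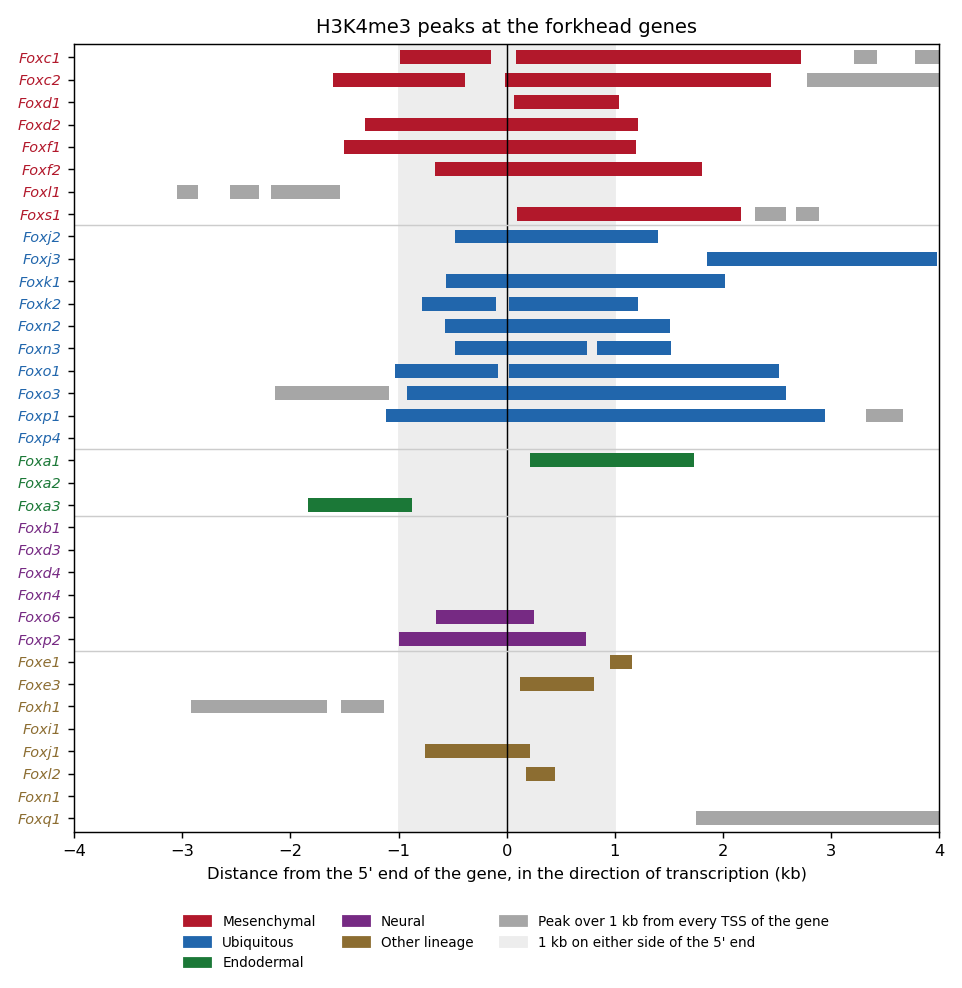
H3K4me3 peaks (bars) around the 5' end of each forkhead gene, with the distance in kb in the direction of transcription and genes grouped and coloured by class. Coloured bars are promoter peaks and grey bars are peaks over 1 kb from every TSS of the gene. The Foxc1, Foxk2 and Foxo1 starts fall in gaps between 2 peaks, and further marked starts inside Foxj2, Foxn3, Foxp1 and Foxp2 lie beyond the plotted range.

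Among the ubiquitous members, the Foxo genes had wide peaks. Foxo1 and Foxo3 are the main forkhead targets of AKT and control stress resistance, metabolism and cell cycle exit. Foxo3 (chromosome 10, 42181841 to 42276755, minus strand) had a peak of 3503 bp, from 918 bp upstream to 2584 bp downstream, wider than those of 98.6% of marked genes. Foxo1 had a peak of 960 bp that ended 78 bp before its start and a peak of 2494 bp that began 23 bp after it and contained a TSS of Gm20402. In contrast, Foxo6, whose expression is mainly neural, had a peak of 909 bp, close to the lower quartile of marked genes (908 bp).

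Foxk1 and Foxk2 are repressors of starvation and autophagy genes. Foxk1 had a peak of 2579 bp. Foxk2 (chromosome 11, 121259990 to 121309896, plus strand) had peaks of 680 and 1188 bp that ended 102 bp before and began 25 bp after the start. Starts in the gap between 2 peaks were thus found at 3 members, Foxc1, Foxk2 and Foxo1, against 5.65% of all protein-coding genes. In all, 8 members had 2 or more promoter peaks, against 23.8% of all protein-coding genes. A share of 8 in 35 is near that background.

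Foxn2 and Foxn3, which belong to the group of Fox genes linked to the DNA damage checkpoint, had widest peaks of 2082 and 1724 bp. Foxj2 and Foxj3 had 1875 and 2128 bp. The 1875 bp peak of Foxj2 also contained a TSS of Gm26826, and the 1216 bp peak at the first Foxn3 start one of Gm26839. The Foxj3 peak began 1849 bp downstream of the most upstream TSS and surrounded a group of 8 TSSs further in and a TSS of Frg2f1, so Foxj3 lost its peak when 1 TSS per gene was used. Foxp1, a factor of lung, heart, B cells and neurons that is also found in many other cells, had the widest peak of all members. The 4060 bp peak ran from 1116 bp upstream to 2943 bp downstream of its start (chromosome 6, 98925338 to 99522721, minus strand) and exceeded 99.4% of marked genes.

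Foxp4 stood apart from its class. It had 0 promoter peaks at any of its 8 TSSs, and the nearest peak, of 612 bp near Mdfi, lay 91.1 kb away. It also had 0 enhancers within 100 kb, the nearest lying 260 kb from its start. Its start was nevertheless rich in CpGs, as the following promoters show.

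CpG islands, stretches rich in CpG dinucleotides, lie at the starts of many genes and often carry H3K4me3. A start was called CpG-rich when the 500 bp on either side had over 50% GC and over 0.6 times the CpGs expected from the base composition (observed to expected ratio). This held for 25 of the 35 members, and 20 of the 25 had a promoter peak. Over all 9740 protein-coding genes with such a start, 93.5% had a peak. By set, it was 14 of 16 such mesenchymal and ubiquitous members (87.5%) and 6 of 9 such others (66.7%), both below that share. The 5 CpG-rich members without a peak were Foxp4 (observed to expected ratio 0.864), Foxd3 (0.819), Foxl1 (0.770), Foxb1 (0.718) and Foxn4 (0.648). Foxd3, Foxb1 and Foxn4 are genes of neural crest, brain and retina or spinal cord. With a CpG-rich sequence at any TSS of the gene counted, 28 members qualified and 22 of them had a peak (78.6%, against 93.0% over all protein-coding genes), with Foxa2 joining those without. Foxj3 differed between its starts. The most upstream one had a ratio of 0.180, while the RefSeq promoter within its peak had a ratio of 1.0 over 300 bp. The ratio at the most upstream start in mesenchymal and ubiquitous members had a median of 0.859, and in the others 0.648. CpG content and marking therefore differed together between these pooled sets, but not in every class. Neural members had a median ratio of 0.768, near the 0.821 of mesenchymal members, yet 2 of 6 against 7 of 8 had a peak. In the 8 genes of other lineages, the 4 with a CpG-rich start were the 4 with a peak by GENCODE starts. With RefSeq starts Foxh1 and Foxq1 (ratios of 0.293 and 0.243 at the GENCODE start) had a peak as well. Of the 3 endodermal members, 0 had a CpG-rich most upstream start and 2 had a peak. The parts of CpG content and lineage class in the difference of marking were not tested.

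The next promoter sequences are from RefSeq (GRCm38.p6) and are read 5' to 3' on the strand of the gene. They show 3 marked starts, 2 CpG-rich starts without a peak and a CpG-poor start without a peak. Bases in annotated exons were left off, and CpG dinucleotides are in capitals. Foxc1 (chr13:31806396-31806632, plus strand) holds 29 CpGs, Foxk2 (chr11:121259737-121259986, plus strand) 48, Foxo3 (chr10:42276756-42276945, minus strand) 28, Foxp4 (chr17:47924646-47924882, minus strand) 26, Foxd3 (chr4:99656049-99656298, plus strand) 21 and Foxi1 (chr11:34208090-34208339, minus strand) 4.
Foxc1: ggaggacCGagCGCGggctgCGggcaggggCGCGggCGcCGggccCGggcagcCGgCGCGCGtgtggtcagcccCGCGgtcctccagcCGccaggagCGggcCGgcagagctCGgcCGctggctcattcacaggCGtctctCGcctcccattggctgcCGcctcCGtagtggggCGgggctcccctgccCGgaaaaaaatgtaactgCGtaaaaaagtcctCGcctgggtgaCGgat
Foxk2: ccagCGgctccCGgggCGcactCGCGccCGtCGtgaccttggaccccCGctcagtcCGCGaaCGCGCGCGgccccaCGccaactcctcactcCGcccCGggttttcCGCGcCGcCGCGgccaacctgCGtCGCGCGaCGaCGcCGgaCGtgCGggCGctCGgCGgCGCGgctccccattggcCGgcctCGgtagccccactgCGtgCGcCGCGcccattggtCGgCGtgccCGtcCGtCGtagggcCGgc
Foxo3: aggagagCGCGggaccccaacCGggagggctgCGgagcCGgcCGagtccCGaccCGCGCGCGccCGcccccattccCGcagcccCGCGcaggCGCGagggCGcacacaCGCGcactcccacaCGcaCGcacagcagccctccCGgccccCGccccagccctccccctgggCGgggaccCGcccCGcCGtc
Foxp4: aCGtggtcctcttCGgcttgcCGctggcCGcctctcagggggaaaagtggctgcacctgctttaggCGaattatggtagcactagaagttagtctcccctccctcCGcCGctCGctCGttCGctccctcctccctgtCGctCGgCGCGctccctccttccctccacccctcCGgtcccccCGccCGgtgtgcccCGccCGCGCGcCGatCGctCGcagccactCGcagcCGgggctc
Foxd3: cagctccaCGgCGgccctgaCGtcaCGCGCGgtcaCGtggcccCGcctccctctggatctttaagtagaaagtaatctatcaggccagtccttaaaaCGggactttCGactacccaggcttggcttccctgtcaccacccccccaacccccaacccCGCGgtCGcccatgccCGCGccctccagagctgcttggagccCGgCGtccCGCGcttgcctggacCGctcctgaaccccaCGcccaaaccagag
Foxi1: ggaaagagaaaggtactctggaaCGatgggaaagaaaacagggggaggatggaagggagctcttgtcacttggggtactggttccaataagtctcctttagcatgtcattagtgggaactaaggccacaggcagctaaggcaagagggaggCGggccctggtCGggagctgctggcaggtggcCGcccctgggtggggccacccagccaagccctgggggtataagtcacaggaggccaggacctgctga
A peak overlapped the Foxc1, Foxk2 and Foxo3 sequences and none overlapped the Foxp4, Foxd3 and Foxi1 sequences. By the observed to expected ratio over these stretches, which differ in length, Foxp4 (0.971) lay above Foxo3 (0.933), Foxc1 (0.932) and Foxd3 (0.854) and below Foxk2 (1.28).

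**Figure D3:**
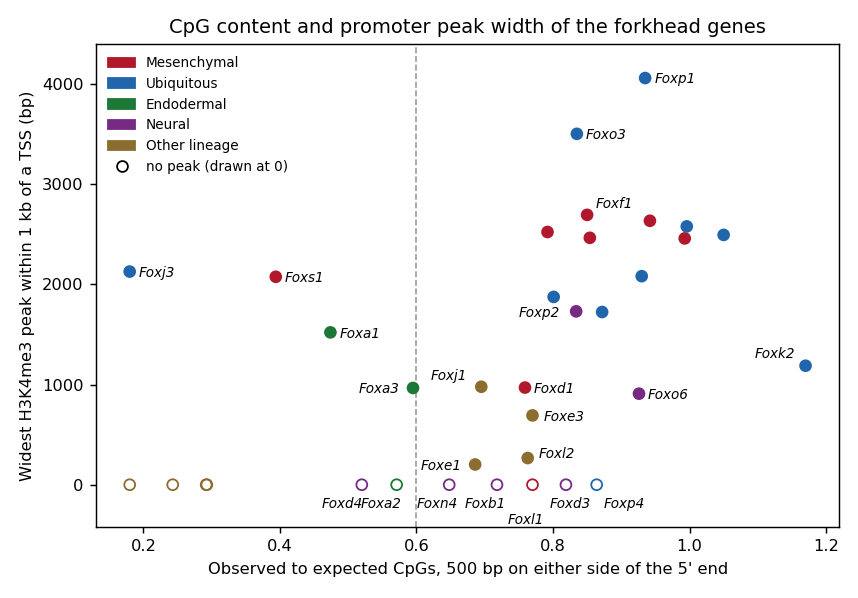
Widest promoter peak (bp) of each forkhead gene against the observed to expected CpG ratio in the 500 bp on either side of its 5' end, 1 point per gene, coloured by class, with open circles for genes without a peak. The dashed line is the ratio of 0.6. Of the open circles, 5 lie to the right of the line, and Foxj3 and Foxs1 reach over 2000 bp to the left of it; the Foxj3 ratio is that of its most upstream start, not of its marked promoter. The points of Foxh1 and Foxi1 overlap.

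The table of RefSeq promoters, from 250 bases before to 50 bases after a start, held 26 promoters of 22 members. The GC box GGGCGG was present in 21 of the 26 (80.8%), against 35.7% of all 32841 promoters, which cover 27018 genes. The member promoters were also richer in GC (median 64.7% against 52.7%) and in CpGs (median ratio 0.733 against 0.384). The part of this composition in the share with a GC box was not tested. The core of the forkhead binding motif, TGTTTAC or GTAAACA on the other strand, was present in 1 (3.85%), that of Foxa1, against 3.65% of all promoters. The TATA box TATAAA was found in 2 (7.69% against 13.6%), at Foxa2 and Foxa3. The AP-1 motif TGANTCA was found in 2 (7.69% against 7.81%), at Foxe3 and Foxn3. All motifs were read on both strands, none contains another, and a match is not a bound site.

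Endodermal members were marked in part. Foxa1, a pioneer factor of liver, lung and prostate, had a peak of 1521 bp that began 212 bp after its most upstream start and contained a TSS of the gene. Foxa2, which acts in the same organs and in the node and floor plate, had 0 peaks, with the nearest one 42.4 kb away. Foxa3 was counted with a peak of 966 bp, but the peak lay 876 to 1841 bp upstream of its start and contained a TSS of the neighbouring gene Sympk. The count of 2 marked endodermal genes therefore includes a peak that also belongs to another gene. It was lost with a window of 500 bp.

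Among neural members Foxp2, which is linked to speech and motor circuits, had the widest peak, of 1731 bp from 996 bp upstream to 734 bp downstream of its start, and 2 peaks of 306 and 212 bp at a promoter 283 kb further in. Foxo6 followed with 909 bp. Foxb1, Foxd3, Foxd4 and Foxn4 had 0 peaks, and the nearest peaks lay 27683, 111294, 56763 and 83038 bp away. The nearest one to Foxd3 had a width of 200 bp.

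At the other lineages the marks were narrow by GENCODE starts. With RefSeq starts Foxq1 had a peak of 2357 bp, described above, and Foxh1 a widest peak of 1261 bp. Foxj1, the master gene of motile cilia, had a peak of 978 bp from 760 bp upstream to 217 bp downstream. Foxe3, a lens gene, had 692 bp, all in coding sequence, covering 79.8% of the gene. Foxl2, of ovarian granulosa cells, had 266 bp, and Foxe1, of the thyroid, had 202 bp, both narrower than nearly all marked genes (1.53% and 0.355% were narrower). Foxi1, of ionocytes and the inner ear, and Foxn1, of the thymic epithelium, had nearest peaks 4.92 and 42.2 kb away. Foxh1, a partner of SMAD proteins in the early embryo, had its nearest peak, of 400 bp, 1132 bp upstream of its start and near a TSS of Ppp1r16a.

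Paralogues were not always marked alike. Foxc1 and Foxc2 (2635 and 2459 bp) and Foxf1 and Foxf2 (2694 and 2465 bp) had similar widths. The Foxd genes ranged from 2523 bp at Foxd2 and 970 bp at Foxd1 to no peak at Foxd3 and Foxd4. The Foxp genes had 4060 bp at Foxp1, 1731 bp at Foxp2 and none at Foxp4. The Foxn genes had 2082 bp at Foxn2, 1724 bp at Foxn3 and none at Foxn1 and Foxn4.

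Members with many TSSs allowed a look at alternative promoters, here groups of TSSs no more than 1 kb apart. Foxp1 had 22 TSSs in 13 such promoters, of which 4 were marked. The first 2, 1.56 kb apart, shared the 4060 bp peak, and those 427 and 494 kb further in had peaks of 1409 and 2160 bp. Foxn3 had 2 of 7 promoters marked, the first with a widest peak of 1216 bp and the other, 170 kb in, with the wider peak of 1724 bp. Foxp2 had 2 of 7, Foxj2 2 of 2 and Foxj3 1 of 3. Foxo3, with 2 promoters, had 1 marked. In each of Foxp1, Foxn3, Foxp2 and Foxj2 an internal promoter was marked in addition to the first.

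Putative enhancers, sites of accessible chromatin with H3K27ac and H3K4me1 in the deposited list, were counted in each gene and within 100 kb on either side. At least 1 was found for 16 of 18 mesenchymal and ubiquitous members and for 13 of 17 members of the other lineages, against 75.5% of all protein-coding genes. The median number was 6.5 in the first set, with quartiles of 3 and 8.75, and 3 in the second, with quartiles of 1 and 4. It was 3 over all protein-coding genes, with quartiles of 1 and 6. The second set thus lay at the background and the first above it. Per Mb of the windows, whose length depends on the gene, the medians were 26.1, 9.80 and 10.0. Members without any enhancer were Foxk2, Foxp4, Foxb1, Foxd3, Foxd4 and Foxi1. All of these but Foxk2 also lacked a promoter peak.

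**Figure D4:**
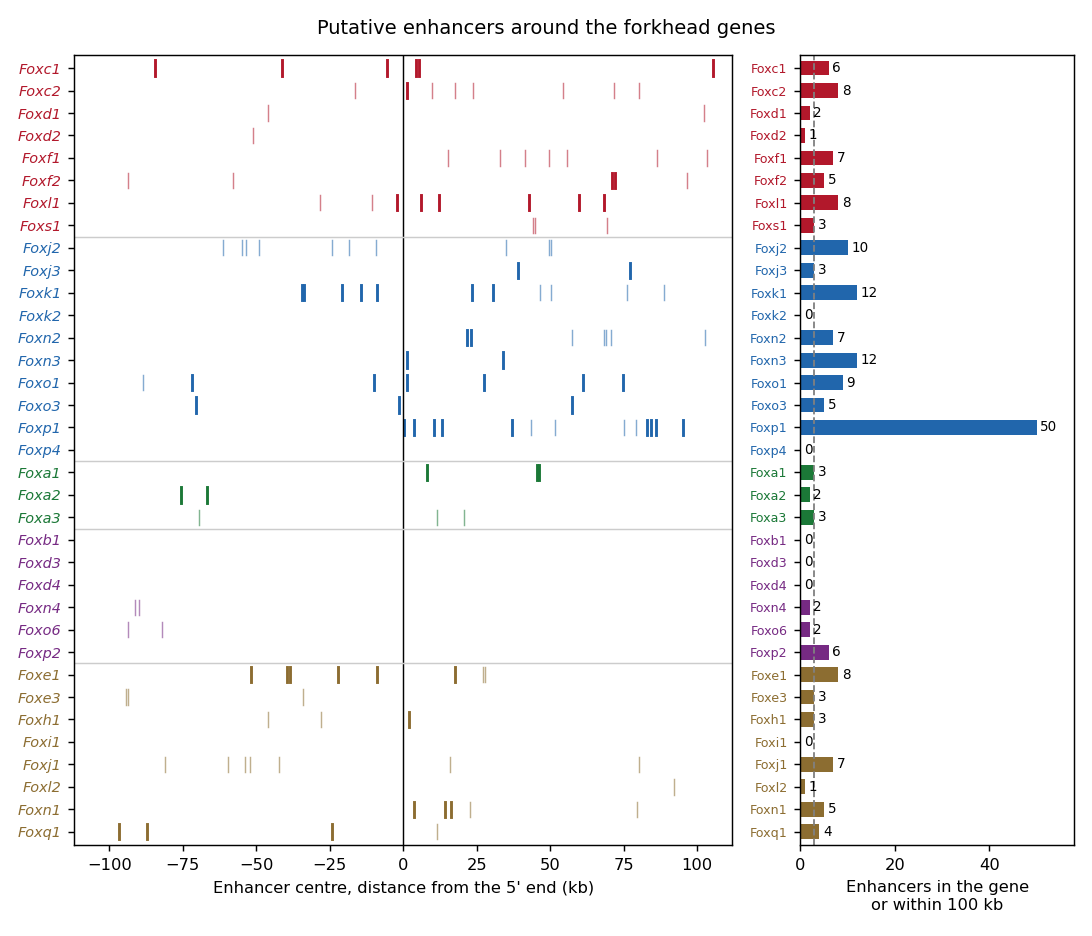
Left, centres of putative enhancers (ticks) around each forkhead gene, in kb from its 5' end in the direction of transcription; thick ticks are enhancers whose nearest protein-coding TSS belongs to the gene, and those over 110 kb away are not drawn. Right, number of enhancers in the gene or within 100 kb, with the median of all protein-coding genes (3) dashed. Foxp1 has 50, and the next highest values are 12 at Foxk1 and Foxn3.

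Foxp1 had the most, 50 enhancers, of which 46 lay in the gene. Foxk1 and Foxn3 followed with 12 each, Foxj2 with 10, Foxo1 with 9, and Foxc2, Foxl1 and Foxe1 with 8. Foxp1 also has the longest gene. Its window held 62.7 enhancers per Mb, the highest density of all members, before Foxk1 with 46.1 and Foxj2 with 44.4. The Foxj2 enhancers all lay outside the gene and were nearest to TSSs of other protein-coding genes. Most of those counted for Foxc2 were nearest to Foxl1. A count in a window therefore does not assign an enhancer to the member. Without Foxp1 the median of the mesenchymal and ubiquitous members was 6. An enhancer inside the gene was found at 12 members, 2 mesenchymal, 7 ubiquitous and 3 others, against 25% of all protein-coding genes. The ubiquitous genes were longer, with a median of 72.7 kb against 3.24 kb for mesenchymal genes; its part in that count was not tested. In addition to Foxp1, the highest numbers within a gene were 10 at Foxn3, 6 at Foxp2 and 4 each at Foxk1, Foxo1 and Foxn1. Foxn1 had 4 enhancers in its gene and no promoter peak.

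Counting each region once, the 35 windows held 178 distinct enhancers with a median width of 526 bp, against 405 bp for all enhancers. For 117 of them the nearest protein-coding TSS was that of a member. An H3K4me3 peak overlapped 28 of the 178 (15.7%), against 7.52% of all enhancers. Some of these lie at the starts themselves. Although the enhancer list was made without regions within 1 kb of known promoters, 9 of the 178 came within 1 kb of a GENCODE TSS of the member, at Foxc2, Foxn3, Foxo1, Foxp1 and Foxp2. They included regions of 2263 bp at the first Foxp1 start, 2216 bp at Foxo1, 1937 bp at the Foxp1 promoter 427 kb further in, and 1842 bp at Foxc2, where 80.5% of the bases were coding. Over all enhancers 8.99% came within 1 kb of a GENCODE TSS of any gene. The 9 were counted against TSSs of the member alone, so this share is not their background.

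An enhancer of Foxp1 is shown as an example, on the plus strand. Among those of at most 300 bp without exonic bases that hold the forkhead core, the one nearest to the start was taken. It (chr6:99519051-99519333) lies 3.53 kb from the start, overlaps an H3K4me3 peak and holds 1 forkhead core, in capitals.
Foxp1 enhancer near the start: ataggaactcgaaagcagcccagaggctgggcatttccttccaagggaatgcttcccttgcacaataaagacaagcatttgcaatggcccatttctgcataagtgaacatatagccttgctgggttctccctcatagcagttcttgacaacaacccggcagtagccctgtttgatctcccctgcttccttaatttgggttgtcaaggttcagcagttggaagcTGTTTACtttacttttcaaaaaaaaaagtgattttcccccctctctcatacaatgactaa
Of the 178 enhancers, 17 (9.55%) held the forkhead core and 49 (27.5%) the AP-1 motif, against 6.56% and 30.2% of all enhancers. Since the member enhancers were wider, matches were also counted per kb. The forkhead core then had 0.151 matches per kb against 0.135 over all enhancers, the AP-1 motif 0.561 against 0.756, and the GC box 0.659 against 0.363. Of the 74 GC boxes, 52 lay in the 28 enhancers that overlap an H3K4me3 peak. After a split made once these values were seen, the 150 member enhancers without a peak had 0.253 GC boxes per kb, against 0.209 in all enhancers without a peak. The AP-1 motif had 0.667 matches per kb in them, against 0.805, and the forkhead core 0.115 against 0.135. In the 28 member enhancers with a peak the forkhead core had 0.276 matches per kb, from 7 matches. All enhancers with a peak had 0.134. Most of the 7 matches lay at Foxp1, and the others at Foxo1, Foxo3 and Foxa1.

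Several members lie in clusters. On chromosome 8, Foxf1, Foxc2 and Foxl1 lie within 46.3 kb (121084386 to 121130644). This stretch with 1 kb on either side held 8 peaks with a summed width of 11.6 kb, and 4 of these, between Foxc2 and Foxl1, lay over 1 kb from any TSS. The widest of the 4, of 2407 bp (121118951 to 121121357), began just past the end of Foxc2. All 8 enhancers within 100 kb of the cluster were in the windows of at least 2 of the genes, so the values for Foxf1 (7), Foxc2 (8) and Foxl1 (8) are not independent. For 6 of the 8 Foxl1 had the nearest TSS, although it had no promoter peak itself.

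On chromosome 13, Foxq1, Foxf2 and Foxc1 lie within 256 kb (31556134 to 31812476). They had 8 peaks with a summed width of 11.5 kb, 3 of them over 1 kb from any TSS. Between the ends of the cluster lay 8 enhancers, and 12 were counted with 100 kb on either side. Of these 3 peaks 1 lay upstream of Foxc1 and 2 lay in it. The last of these (31810405 to 31812307), of 1903 bp, lay in the last part of the gene and contained both enhancers in Foxc1. On chromosome 4, Foxd2 and Foxe3 are 16.3 kb apart, with peaks of 2523 and 692 bp and 0 enhancers between the ends of the pair. With 100 kb on either side the pair had 3 enhancers. With only 1 member kept per cluster and class, the median number of enhancers in the mesenchymal and ubiquitous set was 6.

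**Figure D5:**
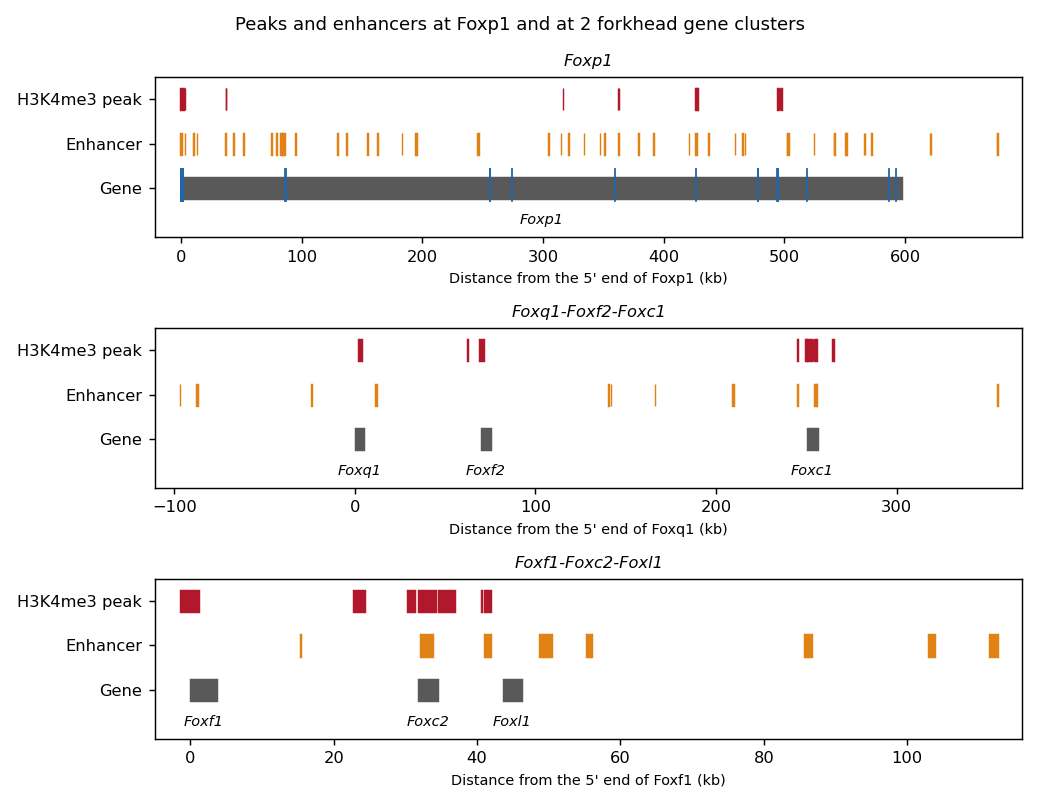
Maps of Foxp1 (top) and of the clusters Foxq1-Foxf2-Foxc1 (middle) and Foxf1-Foxc2-Foxl1 (bottom), to scale in kb from the 5' end of the first gene, with H3K4me3 peaks in red, putative enhancers in orange, forkhead genes in grey and Foxp1 TSSs in blue. Each map extends up to 100 kb beyond the genes, as far as regions were found. The 46 enhancers in Foxp1 spread over the gene, and the 4 peaks between Foxc2 and Foxl1 partly merge at the scale of the bottom map.

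Finally, genes around the Fox factors were counted from fixed lists. Of 20 regulators and targets of Foxo factors, 18 had a promoter peak, against 59.1% of all protein-coding genes. The median widest peak was 1875 bp, against 1255 bp over all marked genes, and Skp2 and Igfbp1 had none. Skp2 directs Foxo1 to degradation, and Igfbp1 is a liver target of Foxo1. Of 14 Hedgehog pathway genes, which act upstream of mesenchymal Fox genes, 11 had a peak (78.6%), with a median widest peak of 1666 bp. Those without were the ligands Shh, Ihh and Dhh, while the receptor gene Ptch1 had 4117 bp and the transducers Gli2 and Gli3 had 2234 and 3017 bp. All 3 ligand genes on the list lacked a peak, and the other 11 genes had one.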

How the data were processed

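H3K4me3 ChIP-seq of iMEF cells was analysed from 2 deposited lists. Per the authors' methods and the labels, Trim Galore trimmed the reads, BWA aligned them to mm10 (GRCm38.p6), samtools filtered the alignments, Picard joined the replicates and MACS called narrow peaks; versions are not given in the sources used here. The deposited positions are in bases, with no score and no value per sample, so the planned test of changes over time could not be run. Peak starts were taken to count from 0 and enhancer starts from 1, an assumption that can shift the first base of a region by 1.

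TSSs were the 5' ends of all GENCODE M21 transcripts (the study named a later release). Peaks were assigned by any base within 1 kb of a TSS, enhancers by any base in the gene or within 100 kb. CpGs were counted in the reference genome. The sequence of a further enhancer is not reported here. Interval functions were tested on simulated regions and differed from a brute-force search in 0 of 800 queries. The members, classes and lists were chosen with earlier results of these data known. By rule, all members could be named, with genes that have a TSS within 1 kb of a member's peak, genes in a cluster (members up to 200 kb apart) and up to 5 genes per list. Some genes outside this rule (Ppp1r16a, Mdfi and genes of the marker and pathway lists) were named after their values were seen. Scripts used pandas 2.3.3, pysam 0.24.0, NumPy 2.4.6, SciPy 1.17.1 and Matplotlib 3.10.9 under Python 3.11.15.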

Additional observations from a re-analysis of the deposited data

How the results depend on the processing

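No paired analysis was possible because neither list gives a value for a sample. The counts of marked members and of members with enhancers, and the medians, were recomputed under other TSS sets, windows, peak lists and class assignments, which gave 68 values. The number of marked members was between 15 and 17 in the mesenchymal and ubiquitous set and between 6 and 10 in the other lineages, and the median widest peak between 2082 and 2551 bp and between 937.5 and 972 bp. The enhancer values moved more. Against medians of 6.5 and 3 in the report, windows of 50 kb gave 4 and 1, and windows of 200 kb gave 12 and 6. When only enhancers nearest to the member were counted, the medians were 2 and 0. An enhancer was then found for 11 of the 18 mesenchymal and ubiquitous members and for 7 of the 17 others. The values over all protein-coding genes were not recomputed under these settings, so the comparison with that background holds for the main setting only. Counting each cluster once was added after seeing the data. Leaving out replicates, a replicate block and DESeq2 size factors were not run, since they need values per sample. Weak or narrow sites can be found or missed with depth, which the lists do not give.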
